A study of Mus musculus with 9 samples.

Results

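This section follows 8 genes of the epithelial cytoskeleton and cornified envelope, the keratins Krt7, Krt8, Krt18, Krt19, Krt20 and Krt23 with Sprr1a and Tgm2, in m-ICcl2 cells through a pulse of lipopolysaccharide (LPS), a cell wall component of Gram-negative bacteria. The genes were selected by symbol after earlier comparisons of these arrays, in which Sprr1a differed widely between tolerant and other cells, so the measured differences in part chose them. Every probe set that carried 1 of these symbols alone was taken, 15 probe sets in all, and the brightest of a gene, averaged over the 9 arrays, stands for it. The 8 genes are among 18193 genes with a probe set of their own, and 6 of the 8 reached log2 4 on at least 3 arrays and were tested, with 9431 genes in all.

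The arrays are Affymetrix mouse expression arrays, 3 for each of 3 conditions, labelled as biological replicates. The cells were left unstimulated, stimulated for 6 h with LPS of E. coli at 100 ng/mL, or stimulated for 6 h at that dose and then kept for 90 h without LPS, the state the series design calls tolerant, reached 96 h after LPS was added. All 9 arrays come from this 1 line, derived from foetal small intestine on the C57BL/6 background and carrying the SV40 large T antigen, so the controls carry that transgene too. The labels give no culture time for the unstimulated cells, so time in culture and past LPS cannot be told apart in tolerant cells. In RNA from whole cultures, a change in the number of cells that express a gene and a change in the RNA per cell cannot be told apart.

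Keratins are the intermediate filament proteins of epithelial cells. They assemble only as pairs of a type I and a type II chain, and in simple epithelia such as the gut lining the main pair is KRT8, of type II, with KRT18, of type I. KRT7 is another type II chain of simple epithelia, KRT19 and KRT20 are type I chains of the intestinal epithelium, KRT20 being a marker of its differentiated cells, and KRT23 is a further type I chain. Small proline-rich proteins such as SPRR1A are cross-linked by transglutaminases into the cornified envelope of squamous epithelium, and TGM2 is the widely expressed tissue transglutaminase.

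The arrays of replicate 1 stood apart from those of replicates 2 and 3 in every condition. For beta-actin, the 3' control probe set exceeded the 5' one by 0.40 to 0.72 log2 on the 3 arrays numbered 1, and by 1.02 to 1.38 log2 on the remaining 6. Where a call depends on this offset, it is also given from a fit that takes the replicate number as a block. The part of these control values in the results was not tested.

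The epithelial label was checked against marker genes. Krt8 and Krt18 were bright, and Vil1, the brush-border actin bundler villin, read 7.56 to 8.29 (log2) over the 9 arrays. By contrast Cdh1 (E-cadherin) stayed at or below 2.81, Cdx2 (the intestinal homeobox factor) at or below 2.55 and Krt19 at or below 2.17 on every array, all under the level minimum. Of the 9 epithelial markers 6 passed the minimum. Epcam, an epithelial surface marker, did so through its tolerant arrays alone, at 5.31 to 6.07 in tolerant cells and 2.92 to 3.24 on the other 6 arrays, and is not counted. Of the other 5, Cdh17, Cldn4 and Krt18 were called higher in tolerant cells in both comparisons, where limma called 14% of all tested genes higher against unstimulated cells and 7.1% against 6 h. Vil1 and Krt8 passed in neither, at -0.18 and -0.10 log2 against unstimulated cells and 0.32 and -0.03 against 6 h. Every tolerant array of Vil1 lay below every unstimulated one, as for 24.5% of all tested genes. The summed level of the 9 was 13.93 to 14.43 (log2) in tolerant cells, against 13.66 to 14.14 in unstimulated cells and 13.40 to 14.06 at 6 h. It was summed on linear intensities, so it is mostly Krt8, at 12.72 to 13.51, and Krt18, at 11.85 to 13.45. Both are genes of the set, and no other of these markers exceeded 9.40. The part of these markers in the results was not tested. Of 8 squamous and basal epithelial markers only Krt5 and Krt10 passed the minimum, and Trp63 and Ivl stayed at or below 2.98. Of 9 fibroblast markers only Vim passed, of 8 leukocyte markers only Csf1r and Cd68 (Ptprc, the pan-leukocyte marker, stayed at or below 3.75), and of 5 endothelial and 7 secretory intestinal markers none.

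Sprr1a differed most among the 8 genes. On probe set 1449133_at it read 9.38, 9.70 and 9.45 in unstimulated cells, 9.0, 8.66 and 9.01 at 6 h of LPS, and 13.14, 13.03 and 12.71 in tolerant cells (log2 intensity, replicates 1 to 3). Every tolerant array lay above every other array, and every 6 h array lay below every unstimulated one. The means were 12.96 ± 0.22 in tolerant cells, against 9.51 ± 0.17 in unstimulated cells (SD, n = 3 each), a 10.9-fold difference. Against the 6 h level of 8.89 ± 0.20 the tolerant level was 16.8-fold higher. At 6 h the level was 1.54-fold lower than in unstimulated cells. Because an earlier large difference in these data put Sprr1a in the set, these values are a description and no test is given for them.

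**Figure D1:**
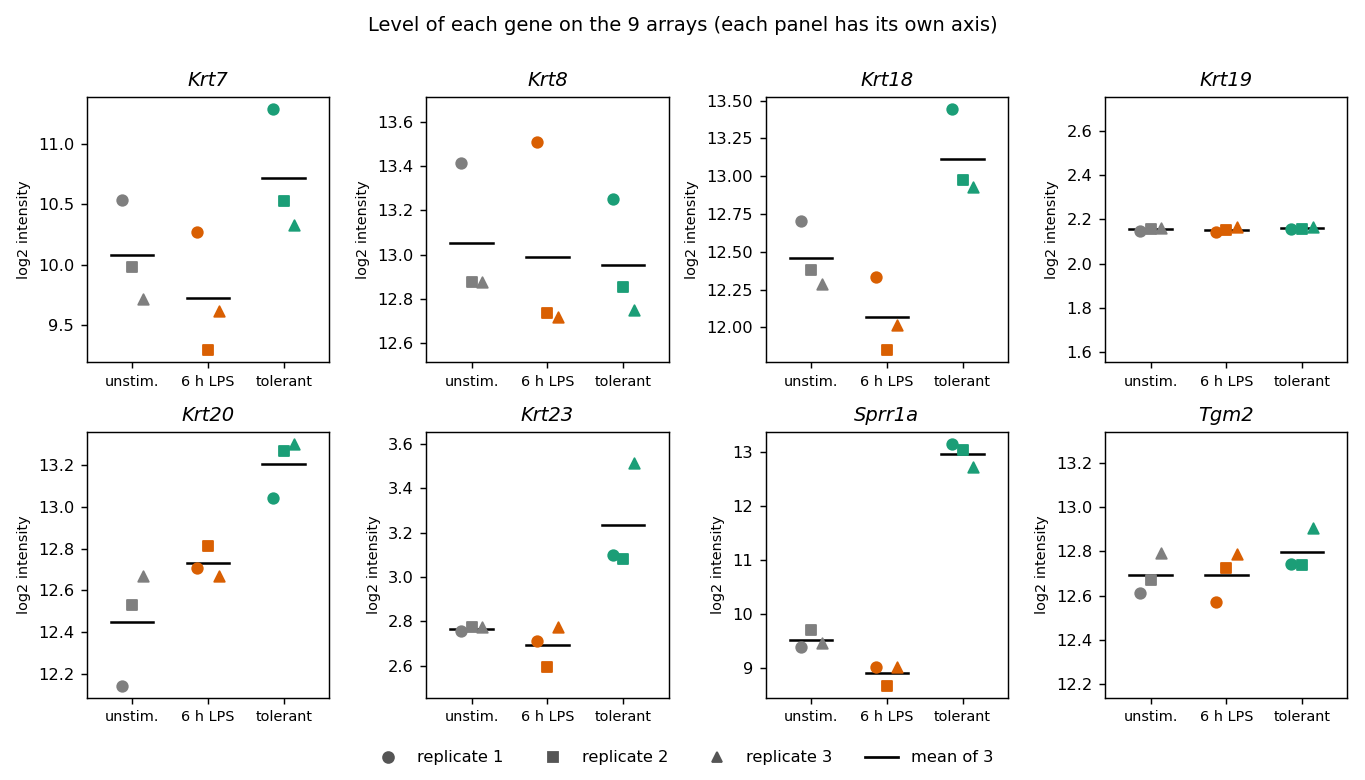
Log2 intensity of the 8 genes on the 9 arrays, by condition, with replicate numbers as symbols and the mean of 3 as a bar; each panel has its own axis. Sprr1a stands between 12.71 and 13.14 on the tolerant arrays and at or below 9.70 on the others, Krt18 and Krt20 are highest on the tolerant arrays, and Krt19 and Krt23 stay under log2 4 throughout.

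Sprr1a lies on chromosome 3 among other cornified envelope genes, with Sprr1b, Sprr3, Sprr4 and Ivl as its coding neighbours in the RefSeq annotation of GRCm38.p6. Of these, Sprr1b was also highest in tolerant cells. It read 5.07, 5.39 and 4.53 in tolerant cells, against 3.88, 3.89 and 3.8 in unstimulated cells, and 3.65, 3.34 and 3.84 at 6 h. With every array of the other conditions under the minimum, Sprr1b passed the level minimum through its tolerant arrays alone. Its tolerant mean was at least 2.0-fold higher, set against log2 4, and since such a gene had to differ it is given no test and is not counted. Sprr3 and Ivl stayed at or below 2.98 on all arrays, and Sprr4 was not analysed here.

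The cornified envelope list held 31 genes, of which 21 had a probe set of their own and 7 were tested. Leaving out Sprr1b, 2 of the other 6, Scel and Sbsn, rose in tolerant cells against unstimulated cells and against cells at 6 h, none fell, and none passed at 6 h against unstimulated cells. The shares called higher over all tested genes were 14% and 7.1%. The median difference of the 6 genes was 0.19 log2 against unstimulated cells, beside -0.07 over all tested genes, and 0.21 beside 0.01 against 6 h.

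Scel, which encodes sciellin, a precursor of the cornified envelope, read 10.37, 10.45 and 10.24 in tolerant cells and 8.38, 8.22 and 8.89 in unstimulated cells. It rose 3.63-fold (limma adjusted p = 0.000787), and 2.54-fold against its 6 h values of 9.13, 9.24 and 8.66 (adjusted p = 0.00527). With the mean of all its probe sets the differences were smaller, 0.93 and 0.68 log2, against 1.86 and 1.34 on the probe set used. Both still passed, but the other Scel probe signal differed less on average than the probe set used. Sbsn, the gene of suprabasin, a secreted protein of the upper epidermis, read 8.70, 8.5 and 8.58 in tolerant cells, against 7.69, 7.75 and 7.76 in unstimulated cells. Sbsn rose 1.81-fold (limma adjusted p = 0.0265), a call lost without any 1 of the 3 tolerant or 3 unstimulated arrays (adjusted p = 0.060 to 0.077), with no filter on low values (0.0631) and with quantile normalization (0.0636), and 2.66-fold against its 6 h values of 6.67, 7.21 and 7.67 (adjusted p = 0.00525). Its other probe sets were higher too, by 0.67 and 0.90 log2 against unstimulated cells.

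The remaining tested genes of the list, Lor, Cstb, Anxa1 and S100a10, encode loricrin, cystatin B, annexin A1 and an S100 protein, and none passed the test in any comparison. With the replicate block, Anxa1 was the single gene added, lower in tolerant cells than at 6 h. The other 14 genes on the array, among them Flg, Cnfn and 6 Sprr genes, were below the level minimum. The transglutaminases that act in skin were below it as well: Tgm1, Tgm3 and Tgm5 did not exceed 2.83, and no member of that family other than Tgm2 was tested.

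The promoters of Sprr1a and of the envelope genes Sprr1b, Scel and Sbsn are shown because they share 1 of the motifs searched, TGANTCA. This is a loose form, with any base at N, of the AP-1 site, the binding sequence of Fos and Jun proteins. The match in Sprr1b and the first one in Sbsn read TGAATCA and fit only this loose form. The sequences run from 200 bases before the start site of the RefSeq table (GRCm38.p6) to 20 bases after it, 5′ to 3′ on the strand of the gene. Capitals mark AP-1 matches and, in Sprr1a and Sprr1b, the TATA box TATAAA.
Sprr1a, chr3:92485862-92486081, minus strand: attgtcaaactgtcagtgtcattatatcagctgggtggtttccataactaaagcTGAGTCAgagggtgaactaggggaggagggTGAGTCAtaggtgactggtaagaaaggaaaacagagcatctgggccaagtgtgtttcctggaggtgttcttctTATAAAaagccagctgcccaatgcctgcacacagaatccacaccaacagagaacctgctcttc
Sprr1b, chr3:92438760-92438979, minus strand: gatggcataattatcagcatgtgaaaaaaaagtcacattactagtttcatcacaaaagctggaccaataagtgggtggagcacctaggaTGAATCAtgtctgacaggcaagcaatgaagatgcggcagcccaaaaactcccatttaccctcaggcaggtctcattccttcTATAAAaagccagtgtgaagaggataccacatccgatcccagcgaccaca
Scel, chr14:103513141-103513360, plus strand: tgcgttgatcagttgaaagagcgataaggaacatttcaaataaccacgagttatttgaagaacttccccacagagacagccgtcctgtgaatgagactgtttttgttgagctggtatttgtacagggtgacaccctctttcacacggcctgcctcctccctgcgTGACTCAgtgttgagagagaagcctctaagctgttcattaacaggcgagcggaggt
Sbsn, chr7:30751271-30751490, plus strand: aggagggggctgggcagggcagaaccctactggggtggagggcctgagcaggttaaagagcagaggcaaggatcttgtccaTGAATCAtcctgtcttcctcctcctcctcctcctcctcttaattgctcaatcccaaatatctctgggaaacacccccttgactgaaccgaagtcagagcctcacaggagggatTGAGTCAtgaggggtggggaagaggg

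In these windows Sprr1a held 2 AP-1 matches, whose first bases lie at -146 and -116 from the start, Sprr1b held 1 at -111, Scel 1 at -36 and Sbsn 2 at -119 and -6. Sprr1b, Scel and Sbsn were shown because they share this motif, so their matches are no independent count. Sprr1b also passed the level minimum through its tolerant arrays alone and is not counted among the genes called higher. Of the 2 other tested envelope genes with a promoter window, Lor held a match and Anxa1 held none. The level of Lor did not pass the test. No link between the motif and the levels is read from these matches. Of the 32851 promoter windows of 300 bases in the table, 7.81% hold TGANTCA on either strand. None of the 5 keratin genes of the set that are in the table held one. The table's start for Sbsn lies 18797 bases inside the annotated gene, which has a further upstream start. A match is a stretch of letters and no measure of binding.

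**Figure D2:**
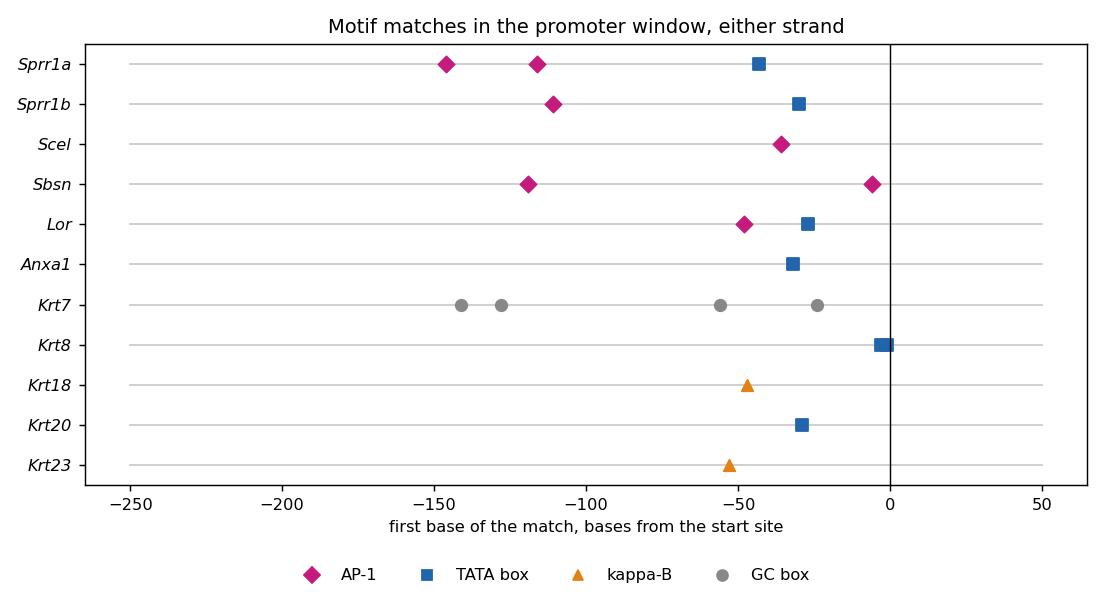
First base of each motif match, in bases from the start site, in the promoter windows of Sprr1a, 5 envelope genes and 5 keratin genes. AP-1 matches (diamonds) are in Sprr1a, Sprr1b, Scel, Sbsn and Lor and in none of the keratin genes; TATA boxes, kappa-B sites and GC boxes have their own symbols.

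Among the keratins, Krt18 and Krt20 rose in tolerant cells and Krt8 did not pass the test in any comparison. Including Sprr1a, 3 of the 6 tested genes of the set were called higher in tolerant than in unstimulated cells and 0 lower, where limma called 26.2% of all tested genes, 14% higher and 12.2% lower. Against 6 h, 2 of 6 were higher, Krt18 and Sprr1a, where 13.1% of all tested genes were called, 7.1% higher and 6.02% lower. At 6 h against unstimulated cells none of the 6 was called, where 0.0636% of all tested genes were by limma; 2163 genes had an unadjusted p under 0.05. These counts include Sprr1a, which the choice of the set fixes, so nothing is read from them. Of the 6 genes, 3 had tolerant arrays all above the unstimulated ones and 4 all above the 6 h ones, where 22.6% and 15.9% of all tested genes did, and 24.5% and 15.4% lay all below. At 6 h, 1 gene lay wholly below the unstimulated arrays and none wholly above, beside 13.2% and 12.9% of all genes. With the replicate block 4 genes were higher in tolerant than in unstimulated cells, where that fit called 22.7% of all tested genes higher and 25.9% lower, and 4 were higher than at 6 h, beside 16% higher and 15.7% lower. At 6 h the block fit called 2 genes lower than in unstimulated cells, beside 12.5% of all tested genes lower and 11.6% higher. Krt18 was 1 of them, and the other was Sprr1a, for which no test is read. The counts of arrays that do not overlap and of the block fit include Sprr1a as well, so nothing is read from them either. The comparisons share arrays in pairs, so their counts are not independent.

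Krt18 on probe set 1448169_at read 12.70, 12.38 and 12.29 in unstimulated cells, 12.34, 11.85 and 12.02 at 6 h, and 13.45, 12.98 and 12.93 in tolerant cells. The tolerant arrays did not overlap with the others, while the unstimulated and 6 h arrays overlapped by 1 array, that of 6 h replicate 1. In tolerant cells the mean was 13.12 ± 0.29, against 12.46 ± 0.22 in unstimulated cells and 12.07 ± 0.25 at 6 h (SD, n = 3 each). The rise over 6 h was 2.07-fold (limma adjusted p = 0.0127), and it held under all 20 alternatives, with adjusted p between 0.000163 and 0.047. Since Krt18 has a single probe set, the alternative probe-set rules could not change its fitted difference. The rise over unstimulated cells was 1.58-fold and close to the threshold (limma adjusted p = 0.0479, or 0.00285 with the replicate block). It missed the threshold under 9 of 20 alternatives, among them without any 1 of the tolerant arrays (adjusted p = 0.129, 0.0908 and 0.0744) and without unstimulated replicate 2 or 3 (0.136 and 0.132). At 6 h Krt18 was lower than in unstimulated cells in all 3 same-numbered pairs, by 0.36, 0.53 and 0.27 log2. This difference passed narrowly with the replicate block (limma adjusted p = 0.301 without it and 0.0488 with it). It did not pass on replicates 2 and 3 alone (limma adjusted p = 0.127), and it passed under 2 of 20 alternatives.

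Krt8 did not follow its partner. On probe set 1423691_x_at it read 13.41, 12.87 and 12.87 in unstimulated cells, 13.51, 12.74 and 12.72 at 6 h, and 13.25, 12.85 and 12.75 in tolerant cells. Replicate 1 was the highest array in every condition, and the 3 conditions overlapped. The tolerant mean differed from the unstimulated mean by -0.10 log2, with a 95% interval from -0.71 to 0.50, and from the 6 h mean by -0.03, from -0.64 to 0.57 (limma adjusted p = 0.817 and 0.958). The other probe sets of Krt8, 1435989_x_at and 1420647_a_at, differed by -0.10 and -0.20 log2 between tolerant and unstimulated cells and by 0.00 and 0.05 between tolerant cells and 6 h.

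The difference between the partners was therefore taken within each array, where a shift shared by both genes of an array drops out. Krt18 minus Krt8 was 0.19, 0.12 and 0.18 log2 on the tolerant arrays, against -0.71, -0.49 and -0.59 on the unstimulated arrays and -1.17, -0.89 and -0.70 on the 6 h arrays. The sign of such a difference between probe sets has no meaning by itself, but its change has. It was higher by 0.76 log2 in tolerant than in unstimulated cells and by 1.08 than at 6 h, and the tolerant arrays overlapped with neither other condition. An exact two-sided permutation test gave p = 0.1 for both, the smallest value 3 arrays against 3 allow, or 0.15 after adjustment over the 3 comparisons, so this design cannot reach 0.05 by that test. Between 6 h and unstimulated cells the difference was -0.32 and the arrays overlapped (exact permutation p = 0.2), while with probe set 1435989_x_at it was -0.29 and the 6 h arrays all lay below the unstimulated ones (exact permutation p = 0.1), and with 1420647_a_at it was -0.14 (exact permutation p = 0.4). For the tolerant cells the other Krt8 probe sets gave 0.76 and 0.86 against unstimulated cells and 1.05 and 1.00 against 6 h. This comparison was added after the values had been seen.

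**Figure D3:**
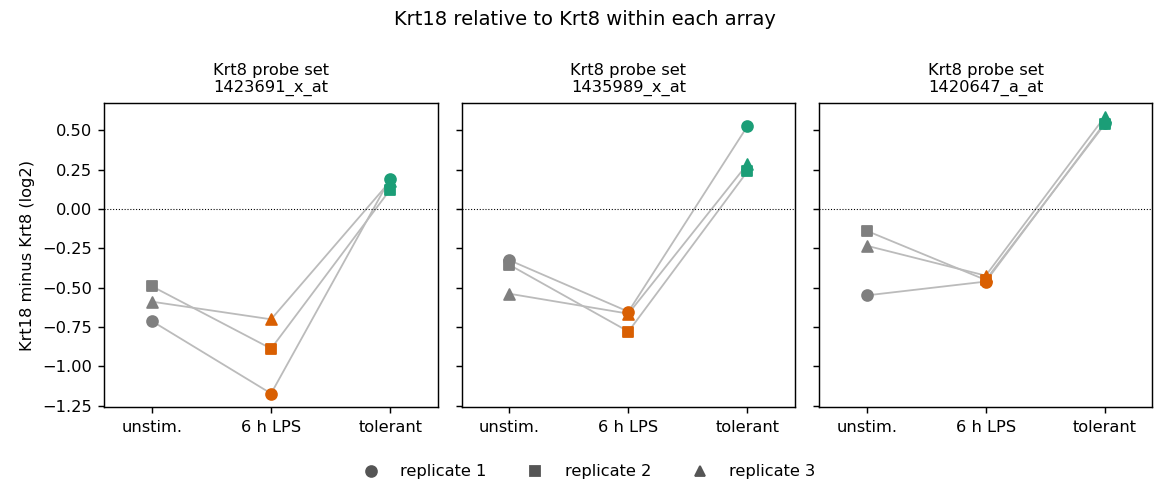
Log2 Krt18 minus log2 Krt8 on each array, by condition, for each of the 3 probe sets of Krt8; lines join arrays of the same replicate number. In each panel the tolerant arrays lie above all others, and on the first probe set they read 0.12 to 0.19.

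Krt8 and Krt18 are coding neighbours on chromosome 15 that run away from each other, Krt8 on the minus and Krt18 on the plus strand. Their promoters are shown, with that of Krt20, to set the raised genes beside the partner that did not pass; the window and strand rules are as above, and capitals mark TATAAA and, in Krt18, the kappa-B site, the binding sequence of NF-kappa-B.
Krt18, chr15:102028016-102028235, plus strand: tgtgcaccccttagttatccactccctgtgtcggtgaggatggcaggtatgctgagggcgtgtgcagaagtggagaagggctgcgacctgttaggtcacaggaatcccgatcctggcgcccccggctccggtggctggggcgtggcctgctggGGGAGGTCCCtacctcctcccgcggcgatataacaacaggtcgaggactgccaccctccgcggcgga
Krt8, chr15:102004323-102004542, minus strand: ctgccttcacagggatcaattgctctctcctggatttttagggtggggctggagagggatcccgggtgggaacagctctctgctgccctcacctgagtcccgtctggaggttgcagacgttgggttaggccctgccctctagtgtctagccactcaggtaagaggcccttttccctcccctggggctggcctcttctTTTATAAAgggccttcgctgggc
Krt20, chr11:99438134-99438353, minus strand: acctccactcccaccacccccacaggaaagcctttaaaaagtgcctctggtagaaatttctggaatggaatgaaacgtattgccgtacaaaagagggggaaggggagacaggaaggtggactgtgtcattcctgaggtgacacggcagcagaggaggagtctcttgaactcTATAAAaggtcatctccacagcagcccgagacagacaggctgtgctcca

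The window of Krt18 held 1 kappa-B match, at -47, and no TATAAA. That of Krt8 held TATAAA on both strands, in overlapping matches next to the start, and no kappa-B site, and that of Krt20 held TATAAA at -29. A kappa-B match was found in 8.46% of all promoter windows and TATAAA in 13.6%, each on either strand. Krt23, whose level stayed under the minimum, also held 1 kappa-B match. Krt7 held 4 GC boxes (GGGCGG, in 35.7% of windows), and Krt8, Krt18, Krt20 and Krt23 none. The ETS core GGAAG was in 71.4% of windows and the CRE TGACGTCA in 1.79%, the last in none of the windows of the set. Krt19 and Tgm2 had no window in the table.

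Krt20 was highest in tolerant cells. On probe set 1426284_at it read 12.14, 12.53 and 12.67 in unstimulated cells, 12.71, 12.81 and 12.67 at 6 h, and 13.04, 13.27 and 13.30 in tolerant cells. The tolerant arrays lay above all others, whereas unstimulated and 6 h arrays met at 12.67. The mean was 13.20 ± 0.14 in tolerant cells, against 12.45 ± 0.27 in unstimulated cells (SD, n = 3 each), a 1.69-fold rise (limma adjusted p = 0.0139). That call was lost without tolerant replicate 2 or 3 (adjusted p = 0.0593 and 0.0590), at fitted values of 0.72 and 0.71 log2. Against 12.73 ± 0.08 at 6 h the tolerant level was 1.39-fold higher and passed with the replicate block (limma adjusted p = 0.12 without it and 0.0313 with it). The 6 h level differed from the unstimulated one by 0.28 log2 (adjusted p = 0.37), with the same-numbered pairs of replicates 1 and 2 at 0.56 and 0.28 and the third near 0.

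Krt7 read highest on the replicate 1 array of each condition. On probe set 1423952_a_at it read 10.53, 9.99 and 9.72 in unstimulated cells, 10.27, 9.29 and 9.62 at 6 h, and 11.29, 10.53 and 10.33 in tolerant cells. Each tolerant array lay above every 6 h array, but not above every unstimulated one. Tolerant minus unstimulated was 0.75, 0.55 and 0.61 log2 in the same-numbered pairs, and tolerant minus 6 h was 1.02, 1.24 and 0.71. Without a block Krt7 did not pass (limma adjusted p = 0.205 and 0.0961). With the replicate block it was 1.56-fold higher than in unstimulated cells (adjusted p = 0.00854) and 1.99-fold higher than at 6 h (adjusted p = 0.00191), and on replicates 2 and 3 alone the adjusted p was 0.0429 and 0.0134.

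**Figure D4:**
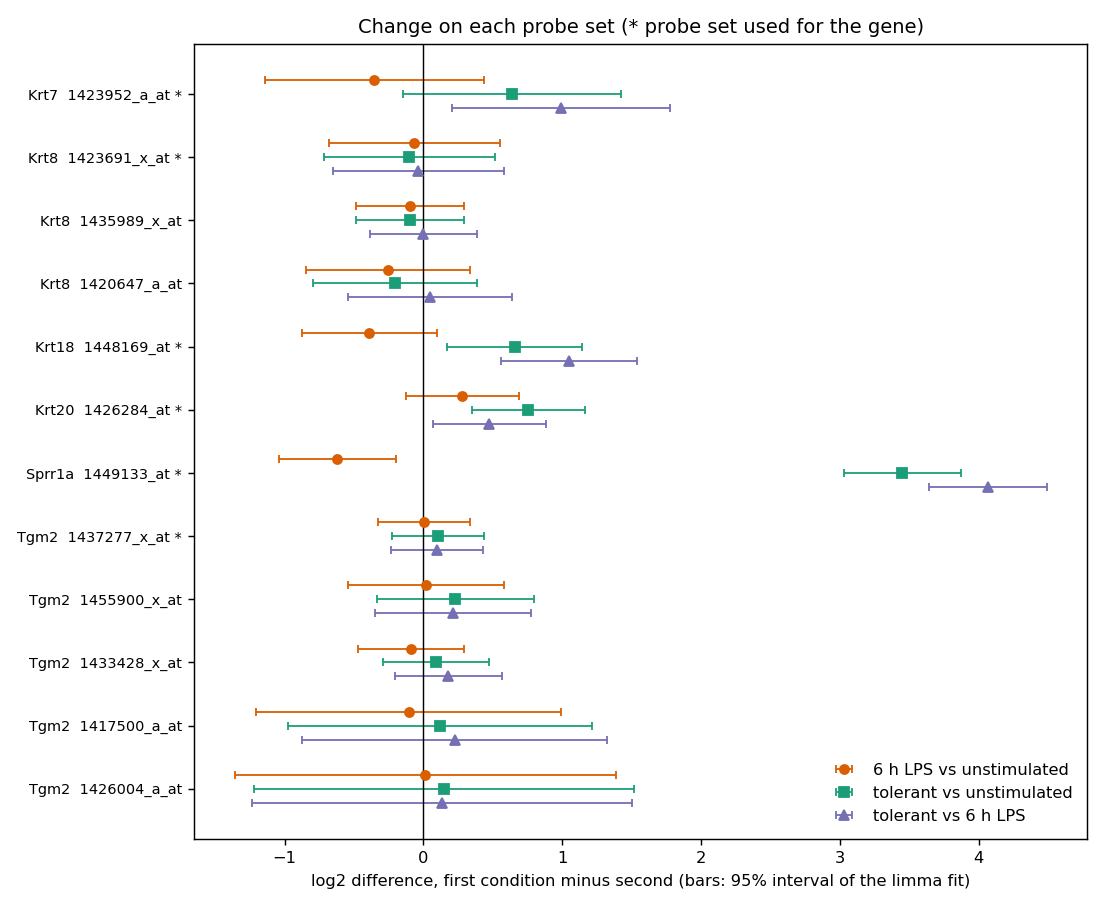
Log2 difference in the 3 comparisons, with its 95% interval from the limma fit over all probe sets, for each probe set of the members above the level minimum; an asterisk marks the one used for the gene. Sprr1a lies at 3.45 and 4.07 for tolerant cells, Krt18 at 0.66 and 1.05, and all probe sets of Krt8 and Tgm2 have intervals that include 0. The intervals of Sprr1a are drawn with the rest and are not read as a test.

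Tgm2, the enzyme that cross-links proteins through glutamine and lysine residues, did not pass the test in any comparison. On probe set 1437277_x_at it read 12.61, 12.67 and 12.79 in unstimulated cells, 12.57, 12.72 and 12.79 at 6 h, and 12.74, 12.74 and 12.91 in tolerant cells, so all 3 conditions overlapped. The tolerant mean differed from the unstimulated mean by 0.10 log2, with a 95% interval from -0.22 to 0.43, and from the 6 h mean by 0.10, from -0.22 to 0.43 (limma adjusted p = 0.644 and 0.716). Of its 5 other probe sets, 4 passed the minimum, and they differed by 0.09 to 0.23 log2 between tolerant and unstimulated cells without passing. Probe set 1417500_a_at read 12.80 to 13.02 on the 3 arrays numbered 1, beside 11.57 to 11.84 on the remaining 6, a larger gap than between any conditions. Probe set 1438942_x_at was under the minimum except for 1 array at 4.26.

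Krt19 and Krt23 were not tested. Krt19 read 2.14 to 2.17 on all 9 arrays of its single probe set. Krt23 read 3.10, 3.08 and 3.51 in tolerant cells, against 2.75, 2.77 and 2.77 in unstimulated cells and 2.71, 2.59 and 2.77 at 6 h. Its tolerant arrays lay above the others, but all values were under log2 4, where values crowd near the floor, and no fold is given.

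Other keratins were sparse. Of 48 further keratin genes listed, 41 had a probe set of their own and 6 were tested, Krt5, Krt10, Krt12, Krt42, Krt80 and Krt88. Of these, 1 was called lower in tolerant cells when set against unstimulated ones, and none higher, where 12.2% and 14% of all tested genes were, a share of the 6 close to that background. This was Krt10, a type I keratin of the upper epidermis, which fell to 5.55, 5.78 and 5.54 in tolerant cells, against 6.26, 6.76 and 6.34 in unstimulated cells (1.78-fold, limma adjusted p = 0.0354). The call was lost without any 1 of the 3 tolerant or 3 unstimulated arrays, or 6 h replicate 2 (adjusted p = 0.050 to 0.127). It was also lost with no filter on low values (0.0842) and with quantile normalization (0.0527). With the replicate block Krt80 was also higher in tolerant cells, against both conditions, and Krt12 at 6 h against unstimulated cells. In these 3 comparisons that fit called 22.7%, 16% and 11.6% of all tested genes higher. On replicate 1, Krt80 read 6.23 in both tolerant and unstimulated cells. Krt12 lay near the level minimum, at 4.19, 2.99 and 3.81 in unstimulated cells. The median of the 6 was 0.21 log2 between tolerant and unstimulated cells, beside -0.07 over all tested genes. Among the squamous keratins Krt1, Krt4, Krt6a, Krt13, Krt14 and Krt17 none read above about 3.0 on any array. Of 15 other intermediate filament genes 5 were tested, Vim, Nes, Lmna, Lmnb1 and Lmnb2, and none passed without the block; with it Lmnb2 was lower in tolerant than in unstimulated cells (limma adjusted p = 0.0372). Vim read 13.23 to 13.51 over the 9 arrays.

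Of 18 listed genes of desmosomes and keratin linkers, 17 had a probe set of their own and 10 were tested. In tolerant cells 2 of the 10 rose against unstimulated cells, Dsg2 and Perp, and 3 against 6 h, Dsg2, Perp and Eppk1. None was lower, and without the block none was called at 6 h against unstimulated cells. Over all tested genes 14% and 7.1% were called higher, so the count against unstimulated cells was near the background. The median was 0.02 log2 against unstimulated cells, beside -0.07 over all tested genes, and 0.25 beside 0.01 against 6 h. With the replicate block 3 rose and 1 fell against unstimulated cells, beside 22.7% and 25.9% of all tested genes, and 4 rose and 1 fell against 6 h, beside 16% and 15.7%. At 6 h against unstimulated cells the block fit called Dst higher and Plec lower (limma adjusted p = 0.0319 and 0.0381), beside 11.6% and 12.5% of all tested genes. Of Dsg2, Perp and Eppk1, Perp alone still passed without tolerant replicate 2.

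Perp, a membrane protein of desmosomes, read 10.56, 10.22 and 10.19 in tolerant cells, against 9.53, 9.44 and 9.20 in unstimulated cells and 9.51, 9.40 and 9.64 at 6 h. It rose 1.92-fold over unstimulated cells (limma adjusted p = 0.00479) and 1.75-fold over 6 h (0.0149, lost at 0.0543 without 6 h replicate 2 and at 0.0536 without tolerant replicate 1). Dsg2, the desmosomal cadherin desmoglein 2, read 8.15, 8.75 and 8.59 in tolerant cells and 7.27, 7.69 and 7.67 in unstimulated cells, a 1.94-fold rise (limma adjusted p = 0.0117, lost at 0.0545 without tolerant replicate 2). Against 6 h the rise of Dsg2 was 1.72-fold (adjusted p = 0.0433) and was lost under 10 of 20 alternatives. Eppk1, the gene of the keratin-binding linker epiplakin, read 6.62, 7.13 and 6.54 in tolerant cells and 4.59, 5.42 and 5.85 at 6 h, a 2.78-fold rise (limma adjusted p = 0.0142, lost at 0.0587 without tolerant replicate 2). Dsp, the gene of desmoplakin, which ties keratin filaments to the desmosome, did not pass without the block and was lower in tolerant cells with it (limma adjusted p = 0.0282 against unstimulated cells and 0.0306 against 6 h).

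**Figure D5:**
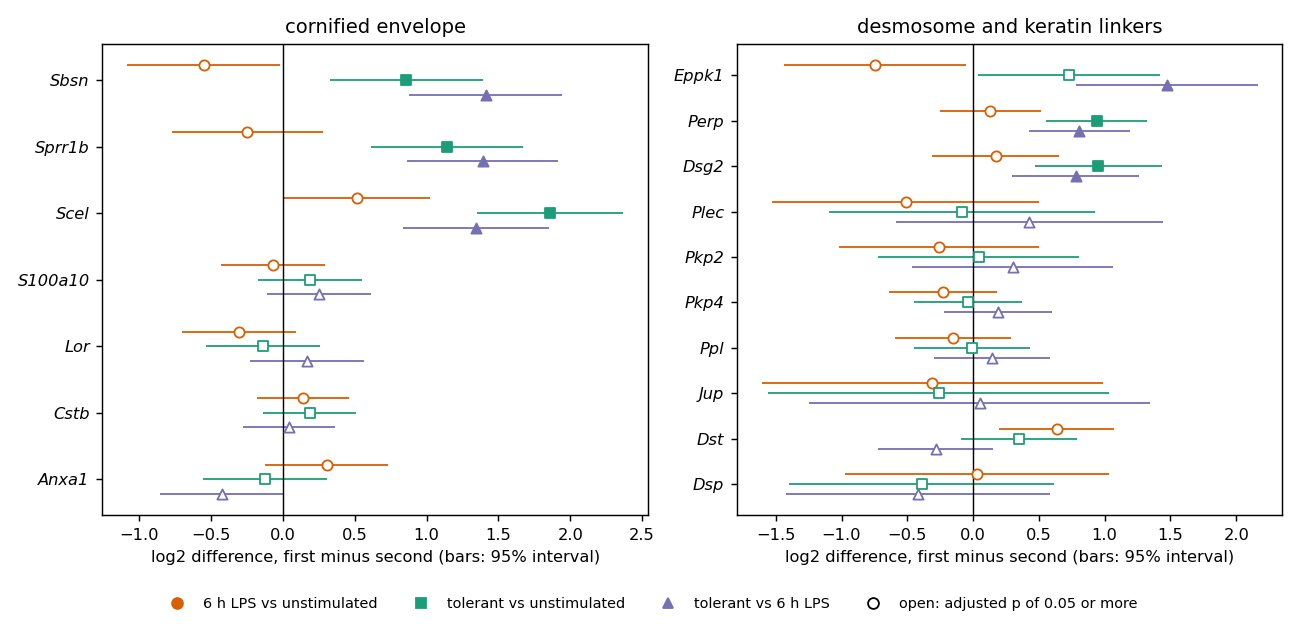
Log2 difference with its 95% interval in the 3 comparisons for the 7 tested cornified envelope genes (left) and the 10 tested desmosome and keratin-linker genes (right); filled symbols have an adjusted p below 0.05. Sbsn and Scel are filled in both comparisons of tolerant cells, Perp and Dsg2 likewise, and Eppk1 against 6 h only; Sprr1b, also filled, passed the level minimum through its tolerant arrays alone and is not counted.

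The genes most like each tested member over the 9 arrays were found by Pearson's r of log2 values, among all tested genes. These arrays share the tolerant condition and the offset of replicate 1, and r is a description. For Sprr1a they were Cd68 (r = 0.997), Isg20 (0.993) and Rdm1 (0.991), all with means higher in tolerant cells than in the other conditions: for Cd68 9.67 in tolerant cells, against 5.52 in unstimulated cells and 5.11 at 6 h. Cd68 is a lysosomal membrane protein also used as a macrophage marker. The other tested leukocyte marker, Csf1r, went the opposite way, at 7.97, 9.25 and 9.30 in tolerant cells, against 10.10, 11.06 and 11.20 in unstimulated cells (3.85-fold lower, limma adjusted p = 0.0232). Against its 6 h values of 9.35, 10.62 and 10.98, Csf1r was 2.78-fold lower, with limma adjusted p = 0.0987, or 0.00022 with the replicate block. The summed level of the 8 leukocyte markers was 10.15 to 10.51 in tolerant cells, against 10.20 to 11.25 in unstimulated cells and 9.51 to 11.04 at 6 h. That sum too was of linear intensities, to which Csf1r and Cd68 contributed most. For Krt18 they were Itprip (0.995), Ier2 (0.993) and Egln3 (0.990), each lowest at 6 h and highest in tolerant cells, as Krt18 was. For Krt20 they were Ndc80 (0.988), Snhg6 (0.988) and Mgat4a (0.981). For Krt7 they were Got1 (0.993), Anxa2 (0.992) and Rflnb (0.989), and for Krt8 Capn1, Spryd3 and Hgs (all 0.988). The highest values for Tgm2 were lower, 0.956 for Bscl2, 0.929 for Lrba and 0.928 for Dnal1.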

How the data were processed

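Per the submitters' processing notes the authors used GCRMA, whose version the labels do not state; the deposited intensity is linear, although the choice of members called it log2, so log2 was taken here with no pseudocount. GCRMA models background from probe sequence, and low values crowd near a floor. The platform annotation gave 1 symbol to 34945 of 45101 probe sets, and the 932 with several were left out. Of 18193 genes, the 51.8% that reached log2 4 on 3 or more of the 9 arrays were tested in limma 3.58.1 (R 4.3.3) with a mean per condition, 6 residual degrees of freedom, eBayes and two-sided p-values with Benjamini-Hochberg adjustment within each comparison, at 0.05. The labels call the arrays biological replicates.

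Members and lists were chosen with earlier results of these data known, so no call on them is independent support. List genes were named where they passed in a comparison, and for each tested member the 3 genes most like it. The labels number the replicates without saying what a number shares. Arrays of one number deviated together in every pair of conditions (r = 0.157 to 0.844 across genes), and so did replicate 2 with replicate 3 (0.214 to 0.731), while replicate 1 ran against both (-0.743 to -0.375). Deviations from a condition's mean cancel out over its 3 arrays. The negative values, and the positive ones of replicate 2 with replicate 3, therefore follow in part from the offset of replicate 1. Alternatives were the replicate block, replicate 1 as a block, other filters, probe-set rules and normalization, and leaving out each array. The limma fit was tested on simulated data with known differences between tolerant and unstimulated arrays. Noise in them was independent for each array, without the offset of replicate 1, so that test cannot show how the fit handles the offset. The other steps were not tested in that way. Promoter sequences are RefSeq's, on GRCm38.p6.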

Additional observations from a re-analysis of the deposited data

How the results depend on the processing

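The deviations set replicate 1 apart but did not pair replicates 2 and 3 by number. Arrays numbered 2 or 3 went together at r = 0.411 to 0.677 and 0.157 to 0.651, and replicate 2 with replicate 3 at 0.214 to 0.731. With the replicate number as a block, limma called 2267 genes at 6 h against unstimulated cells, 4586 in tolerant against unstimulated cells and 2985 in tolerant cells against 6 h, beside 6, 2470 and 1238 without it. With replicate 1 against 2 and 3 as the block the counts were 2743, 4809 and 3192, and on replicates 2 and 3 alone they were 8, 3608 and 2126. The members called at 6 h were 2 under both blocks and 0 on replicates 2 and 3, and those in tolerant cells against 6 h were 4 under both blocks and on replicates 2 and 3. At 6 h against unstimulated cells 37 genes were called with no filter and 14 with the mean of all probe sets. Leaving out 1 array gave 5 to 696 genes at 6 h (696 without 6 h replicate 3), 1400 to 2908 in tolerant against unstimulated cells and 677 to 1282 in tolerant cells against 6 h, with 1 to 3 members called in tolerant against unstimulated cells and 2 to 3 against 6 h. Without tolerant replicate 2 or 3 it was 1 member against unstimulated cells. The counts of members cover Sprr1a, which the choice of the set fixes, so nothing is read from them. Krt18 minus Krt8 was 0.86 log2 higher in tolerant than in unstimulated cells on probe set 1420647_a_at. Of the named genes, Krt8 and Tgm2 turned direction, and neither passed the test. Krt8 in tolerant cells against 6 h turned to 0.0042 with the mean of all probe sets, 0.047 without probe sets marked as shared and 0.076 on replicates 2 and 3. Tgm2 at 6 h against unstimulated cells turned to -0.090 and -0.11 under the same probe-set rules. Leaving out 1 array, Krt8 ranged from -0.33 to 0.11 at 6 h against unstimulated cells, -0.25 to 0.078 in tolerant against unstimulated cells and -0.18 to 0.23 against 6 h, and Tgm2 from -0.045 to 0.063 at 6 h. The cause of these shifts was not tested. Of 360 values of members under alternatives, 321 kept their direction and call. That number includes Sprr1a, for which no test is read, and differences that did not pass in the main fit. With 3 arrays a condition, their number limits the precision.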
